A study of Mus musculus with 2 samples.

Results

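The macrophage genes described here are 10 genes that mark or act on macrophages, the tissue phagocytes of the myeloid lineage: Csf1, Csf1r, C1qa, C1qb, C1qc, Cd68, Lyz2, Emr1, Mrc1 and Cd163. They were chosen by symbol from the 25810 genes with a symbol in the deposited expression files, and all 10 were found once in each file. All 10 also reached 1 RPM, the reads of a gene per 1000000 reads of its library, in at least 1 library, the minimum that 14026 genes met. Expression was measured by poly(A) RNA-Seq of mammary epithelial cells (MECs) from the inguinal glands of mice on lactation day 3, in 1 library from wild-type (WT) mice and 1 library from Igfbp7-/- mice, which lack the insulin-like growth factor binding protein IGFBP7 in every tissue because the first coding exon was deleted. The question of the comparison was which transcripts depend on Igfbp7 in lactating MECs. The labels give C57BL/6 as the background of both groups, whereas the methods describe a CD1 background, and the age and number of the animals behind each library are not given in the sources used here. Cells carrying CD45 (Ptprc, the antigen common to leukocytes) and Ter119 were removed magnetically from both samples before RNA extraction, together with cells carrying CD31 (Pecam1) by the methods or CD35 by the labels, so macrophages belonged to the removed fraction in both groups.

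Macrophages of the mammary gland live around the ducts and alveoli, where they engulf dying cells and milk residue and take part in branching and in remodelling after weaning. Their survival depends on the receptor tyrosine kinase CSF1R and its ligand CSF1, which is made by stromal, endothelial and epithelial cells. Macrophages are the main source of complement C1q, the recognition protein that opens the classical complement pathway, and they carry lysozyme, the lysosomal protein CD68, the surface receptor F4/80 (encoded by Emr1, now Adgre1), the mannose receptor (Mrc1) and the haemoglobin scavenger receptor CD163.

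Igfbp7 itself had 5224 reads in the WT library and 37 in the Igfbp7-/- library, or 152.2 and 1.06 RPM, so the libraries matched their labels. RNA of the depleted lineages was present in both. Ptprc had 43.5 RPM in WT against 18.1 RPM in Igfbp7-/-, and Pecam1 had 322.5 and 88.9 RPM. The libraries held 34327854 and 35016847 reads in total, of which 82.3% and 72.3% lay on listed genes. With 1 library per genotype no difference could be tested against the spread between animals. The 95% intervals for the ratio of a gene between the libraries are Clopper-Pearson intervals on read pairs, and those for levels are exact Poisson intervals. For ratios between genes, and for values per Ptprc, the intervals are normal approximations on the log scale. All of these intervals cover counting error only. In bulk RNA, fewer cells of a type and less RNA per cell cannot be told apart.

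In the WT library all 10 genes were detected, with levels per gene length (RPM divided by the length of the gene in kilobases, RPKM) that ran from 156.2 RPKM for Csf1 to 0.973 RPKM for Cd163. Csf1 lay above 97.5% of the genes kept, and Cd163 above 16.0%. The order in WT was Csf1, Lyz2, Cd68, C1qa, C1qb, C1qc, Csf1r, Emr1, Mrc1 and Cd163, and the counting intervals of neighbours in this order were apart except for those of Emr1 and Mrc1. In the Igfbp7-/- library Csf1, Lyz2 and Cd68 remained the highest at 86.3, 22.8 and 17.4 RPKM. The C1q chains and Csf1r then formed a run from 3.76 to 2.42 RPKM whose neighbours overlapped. Mrc1, Cd163 and Emr1 formed a lower run from 1.31 to 0.898 RPKM with overlapping neighbours. The plot of the levels shows the gap between the libraries widest at the C1q chains and closed at Cd163.

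**Figure D1:**
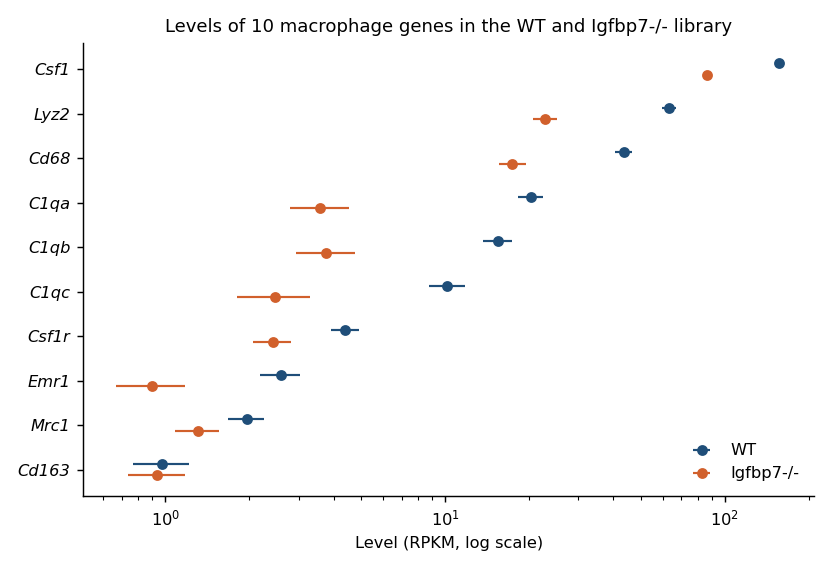
Level of each macrophage gene in RPKM (log axis) in the WT library (blue) and the Igfbp7-/- library (orange), with bars for the 95% counting interval. Csf1 is the highest gene in both libraries (156.2 and 86.3 RPKM), the 3 C1q genes are well apart between the libraries, and the intervals of Cd163 overlap (0.973 and 0.935 RPKM).

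Fold differences were taken from RPM with 0.1 RPM added to each value, and a gene was counted as lower or higher at 1.5-fold or more. By this rule 8 of the 10 macrophage genes were lower in Igfbp7-/-, none was higher and 2, Mrc1 and Cd163, stayed within 1.5-fold. Among all 14026 genes kept, 23.0% were lower and 21.4% were higher. At 2-fold, 6 of the 10 were lower, against 13.8% of all genes lower and 9.64% higher. The value of every one of the 10 genes was below its WT value. Their log2 ratios had a median of -1.39, a 2.63-fold lower level in Igfbp7-/-, where the median of all genes was 0.03 with quartiles of -0.52 and 0.51. Scaling the counts to the reads on listed genes raised the median of all genes by 0.19 on the log2 scale and moved the share of lower calls among all genes called from 51.8% to 37.8%, and the same 8 genes were lower under that scaling. The genes nearest the threshold were Csf1r just inside it, with a log2 ratio of -0.85, and Mrc1 just outside it, with -0.57.

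**Figure D2:**
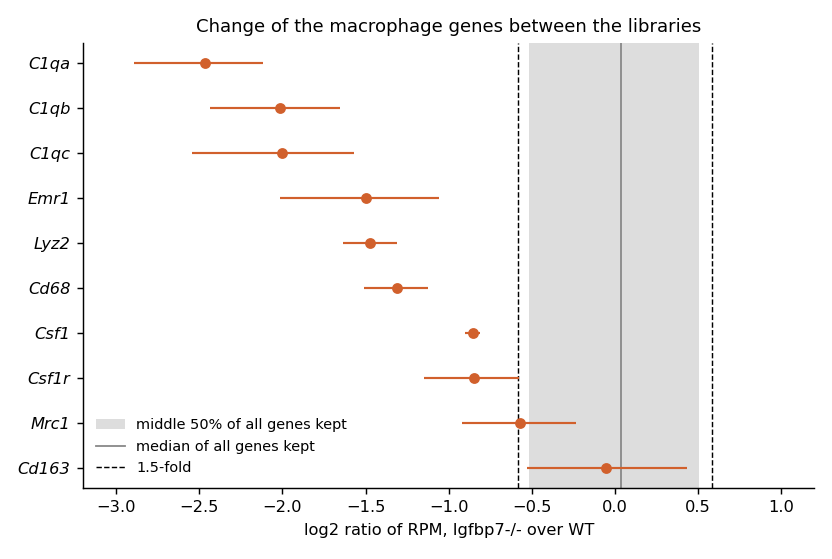
Log2 ratio of RPM, Igfbp7-/- over WT, for each macrophage gene with its 95% counting interval, beside the middle 50% of all 14026 genes kept (grey, -0.52 to 0.51), their median (grey line) and the 1.5-fold limits (dashed). The C1q genes lie furthest to the left, with C1qa at -2.47, Mrc1 sits at the limit and the point of Cd163 lies within the grey band.

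The ligand and its receptor were lower by almost the same factor. Csf1, the growth factor on which macrophages depend, had 22476 reads in WT (654.7 RPM) and 12666 reads in Igfbp7-/- (361.7 RPM). Its RPM was 1.81-fold lower, with an interval from 1.76 to 1.87, the narrowest of the 10. Csf1 is carried on chromosome 3 (107543966-107563387, minus strand, NCBIM37 assembly, the mm9 build). Csf1r, the receptor that also binds IL-34, had 583 reads in WT (17.0 RPM) and 329 reads in Igfbp7-/- (9.40 RPM), and was 1.80-fold lower, with an interval from 1.49 to 2.21 whose lower bound was just short of 1.5-fold. Per gene length, Csf1 was 35.6 times the level of Csf1r in both libraries, and the log2 change of that ratio had an interval from -0.28 to 0.28. Il34, the second ligand of CSF1R, had 13.3 RPM in WT against 11.1 RPM in Igfbp7-/-, with a log2 ratio of -0.26 and an interval from -0.55 to 0.02. Csf1 was 21.6 times the level of Il34 in WT and 14.3 times in Igfbp7-/-, on the RPKM scale.

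Among the other colony-stimulating factor genes, 4 of the 7 were lower, 1 was higher and the median log2 ratio was -1.03. The shares of all genes were 23.0% lower and 21.4% higher. Csf3, the granulocyte growth factor G-CSF, had 912 RPM in WT against 226 RPM in Igfbp7-/-, a log2 ratio of -2.01, and its receptor gene Csf3r had 8.36 and 4.06 RPM. Csf2rb, the shared beta chain of the GM-CSF, IL-3 and IL-5 receptors, and its paralog Csf2rb2 had 67.6 and 32.5 RPM in WT and 21.6 and 9.40 RPM in Igfbp7-/-. These paralogous chains may share reads, and so their separate counts are uncertain. Csf2, the ligand GM-CSF, was the gene counted as higher, at 0.932 RPM in WT against 2.11 RPM in Igfbp7-/-. It passed the minimum through Igfbp7-/- alone, so it could not be counted as lower.

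The 3 chains of C1q showed the largest differences of the 10 genes. They are encoded side by side on the minus strand of chromosome 4, within 18.7 kb (136436044-136454718, NCBIM37), and assemble in equal numbers into the C1q molecule. C1qa had 753 reads in WT (21.9 RPM) and 136 reads in Igfbp7-/- (3.88 RPM), and was 5.53-fold lower, with an interval from 4.35 to 7.41. C1qb had 564 reads in WT (16.4 RPM) and 140 reads in Igfbp7-/- (3.998 RPM), a 4.03-fold lower level with an interval from 3.15 to 5.42. The third chain, C1qc, had 372 reads in WT (10.8 RPM) and 92 reads in Igfbp7-/- (2.63 RPM), a 4.01-fold lower level with an interval from 2.97 to 5.83. All 3 were lower, and their intervals overlapped each other. Only 2.22%, 3.84% and 3.90% of all genes kept had a lower ratio than C1qa, C1qb and C1qc. In terms of level per gene length, C1qa was the highest chain in WT, where C1qb stood at 0.763 and C1qc at 0.503 of it. In Igfbp7-/- these proportions were 1.05 and 0.689. C1qa took 44.5% of the 1689 reads on the 3 genes in WT (95% Wilson interval on pairs, 41.2% to 47.9%) and 37.0% of the 368 in Igfbp7-/- (30.3% to 44.1%), so the intervals of its share overlapped.

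RefSeq promoters (GRCm38.p6) were at hand for 7 of the 10 genes, Csf1, C1qb, C1qc, Cd68, Lyz2, Mrc1 and Cd163, and the 250 bases before each start site were searched on both strands for AGGAAGT, a form of the purine-rich element bound by PU.1, the ETS factor that directs macrophage gene expression. The element occurred in 4 of the 7, in C1qb, C1qc, Lyz2 and Mrc1, and in 7.69% of all 32851 promoters of this length. A second spelling, GAGGAA, occurred in C1qb, C1qc, Cd68 and Mrc1 and in 23.3% of all promoters, and overlapped AGGAAGT in C1qc. These are matches of letters and no measure of binding. The promoters of C1qb (chr4:136886201-136886450, minus strand) and C1qc (chr4:136892915-136893164, minus strand) are printed because the C1q genes differed most between the libraries, and that of Cd163 (chr6:124304401-124304650, plus strand), which holds neither spelling, because its gene differed least. The promoter of Csf1, a lower gene, also holds neither spelling, and that of Mrc1, a gene within 1.5-fold, holds both. A link between the spellings and the differences was not tested. Capitals mark AGGAAGT, which reads as its reverse complement in both C1q promoters and begins at -53 in C1qb and -195 in C1qc, counted from the start site.
C1qb: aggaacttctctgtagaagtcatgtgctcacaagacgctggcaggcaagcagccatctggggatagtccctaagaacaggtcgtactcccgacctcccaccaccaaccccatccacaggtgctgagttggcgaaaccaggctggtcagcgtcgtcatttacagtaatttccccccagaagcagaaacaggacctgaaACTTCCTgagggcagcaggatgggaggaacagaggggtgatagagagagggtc
C1qc: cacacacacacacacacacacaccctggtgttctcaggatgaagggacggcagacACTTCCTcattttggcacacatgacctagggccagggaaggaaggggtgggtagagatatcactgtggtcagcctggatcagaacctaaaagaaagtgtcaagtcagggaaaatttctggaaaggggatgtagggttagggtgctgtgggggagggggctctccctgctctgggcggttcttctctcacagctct
Cd163: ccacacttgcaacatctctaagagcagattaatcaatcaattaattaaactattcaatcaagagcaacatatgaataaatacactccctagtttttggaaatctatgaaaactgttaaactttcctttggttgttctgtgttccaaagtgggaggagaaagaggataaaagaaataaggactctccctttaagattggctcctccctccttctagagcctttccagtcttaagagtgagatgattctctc

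The serine proteases and regulators that work with C1q differed less between the libraries than the C1q chains did. C1ra and C1rb, the genes of the protease C1r, had log2 ratios of -0.28 and -0.57, and C1s, the protease C1r activates, had 0.08. The intervals of C1ra, from -0.39 to -0.17, and of C1rb, from -0.75 to -0.40, lay below 0. The counts of the paralogs C1ra and C1rb may share reads and are uncertain. Serping1, the C1 inhibitor, had 322.6 RPM in WT against 321.9 RPM in Igfbp7-/-. Of the 9 partner genes listed, 1 was lower and none higher at 1.5-fold, where 23.0% of all genes were lower and 21.4% higher. The median log2 ratio of the 9 was -0.28. The lower gene was Cd93, a glycoprotein of endothelial and myeloid cells once described as a C1q receptor, at 502.3 RPM in WT against 159.4 RPM in Igfbp7-/-.

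Cd68 and Emr1, a lysosomal and a surface marker of macrophages, were both lower. Cd68 (chromosome 11, 69477715-69479655, minus strand, NCBIM37) had 1504 reads in WT (43.8 RPM) and 615 reads in Igfbp7-/- (17.6 RPM), a 2.49-fold lower level with an interval from 2.18 to 2.85. Emr1 (chromosome 17, 57498109-57622952, plus strand) had 289 reads in WT (8.42 RPM) and 102 reads in Igfbp7-/- (2.91 RPM), a 2.83-fold lower level with an interval from 2.08 to 4.05. The level of Emr1 relative to that of Csf1r, in RPKM, was 0.592 in WT and 0.370 in Igfbp7-/-, and the interval of the log2 change of this ratio, from -1.21 to -0.14, lay below 0. Cd68 was 16.8 times the level of Emr1 in WT and 19.4 times in Igfbp7-/-, and there the interval, from -0.29 to 0.71, held 0.

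Lyz2 encodes the lysozyme of macrophages and other myeloid cells, an enzyme that cleaves bacterial cell walls. It had 2298 reads in WT (66.9 RPM) and 843 reads in Igfbp7-/- (24.1 RPM), and was 2.77-fold lower, with an interval from 2.48 to 3.11. Its neighbour Lyz1, named here as the paralog of Lyz2 and after its values were seen, encodes the lysozyme of intestinal Paneth cells and had 42 reads in WT (1.22 RPM) and 50 reads in Igfbp7-/- (1.43 RPM). The log2 ratio of Lyz1 was 0.21 with an interval from -0.67 to 1.13. Per gene length, Lyz2 was 66.4 times the level of Lyz1 in WT and 20.4 times in Igfbp7-/-. The transcripts of the pair are alike: 80.8% of the 35-base windows and 54.0% of the 75-base windows of Lyz2 match Lyz1 with at most 3 mismatches. How reads that match both were counted is not given in the sources used here, so the split between them is uncertain.

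The lysozyme genes lie 5.47 kb apart on the minus strand of chromosome 10 (Lyz2 at 116714390-116719377 and Lyz1 at 116724852-116729924, NCBIM37). Their promoters are printed because both hold AGGAAGT at the same place, as its reverse complement in capitals that begins at -100, although 60.8% of the 250 bases were identical and the levels in RPKM differed as given. Over the 100 bases nearest the start site 92.0% were identical. In GRCm38.p6 they are chr10:117282273-117282522 for Lyz2 and chr10:117292869-117293118 for Lyz1, both on the minus strand.
Lyz2: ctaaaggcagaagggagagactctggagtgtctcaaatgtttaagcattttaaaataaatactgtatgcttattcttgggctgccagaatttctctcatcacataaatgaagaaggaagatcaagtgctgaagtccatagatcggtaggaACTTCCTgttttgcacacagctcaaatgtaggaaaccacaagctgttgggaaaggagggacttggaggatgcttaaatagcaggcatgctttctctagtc
Lyz1: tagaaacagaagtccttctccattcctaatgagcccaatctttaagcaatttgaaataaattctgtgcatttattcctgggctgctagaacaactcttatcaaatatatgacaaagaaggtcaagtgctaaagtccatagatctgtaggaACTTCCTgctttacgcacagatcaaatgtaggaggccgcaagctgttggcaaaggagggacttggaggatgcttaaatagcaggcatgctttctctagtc

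The genes of the scavenger receptors Mrc1 and Cd163, which are high in resident macrophages of the alternatively activated kind, were the 2 that stayed within 1.5-fold. This did not hold for alternative activation genes as a list, of which 7 were kept, 5 lower and 2 higher. Among all genes 23.0% were lower and 21.4% higher. Mrc1 (chromosome 2, 14151041-14253684, plus strand, NCBIM37) had 357 reads in WT (10.4 RPM) and 244 reads in Igfbp7-/- (6.97 RPM), a 1.49-fold lower level with an interval from 1.18 to 1.89. Centring all ratios on their median took Mrc1 past the threshold, at a log2 ratio of -0.61. Cd163 (chromosome 6, 124254669-124280545, plus strand) had 150 reads in WT (4.37 RPM) and 147 reads in Igfbp7-/- (4.198 RPM). A difference in Cd163 was not detectable at this depth, since the interval of its log2 ratio ran from -0.53 to 0.43.

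The 10 genes therefore did not keep their proportions to one another. On the RPKM scale C1qa was 20.8 times the level of Cd163 in WT and 3.84 times in Igfbp7-/-, and the log2 change of this ratio was -2.44 with an interval from -3.04 to -1.84. Against Mrc1, C1qa went from 10.4 times to 2.74 times, with an interval from -2.42 to -1.42. C1qa had the lowest log2 ratio of the 10 genes and Cd163 and Mrc1 the highest, a choice of pairs that the intervals do not allow for. For these pairs the differences were larger than counting error. Whether they exceed the spread between animals cannot be read from 1 library each.

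Ptprc, the transcript of the antigen used for depletion, was 2.40-fold lower in Igfbp7-/-, with an interval from 2.11 to 2.76, and its part in the lower macrophage genes was not tested. The RPM of each macrophage gene was therefore also divided by that of Ptprc, a comparison added after the data were seen. On this scale 3 genes were lower by 1.5-fold or more, 2 were higher and the median log2 ratio was -0.13. Dividing by Ptprc raises every gene alike, so that 5.13% of all genes were lower and 79.1% higher on this scale, with a median of 1.30, and all 10 macrophage genes lay below that median. The lower genes were the C1q chains, at -1.23 for C1qa, -0.77 for C1qb and -0.78 for C1qc. Cd68 at -0.05, Lyz2 at -0.21 and Emr1 at -0.27 had intervals that held 0. Csf1r and Csf1 both stood at 0.41, above 0 but within 1.5-fold. Mrc1 was higher per Ptprc by 0.69, with an interval from 0.31 to 1.07, and Cd163 by 1.21, with an interval from 0.71 to 1.71.

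**Figure D3:**
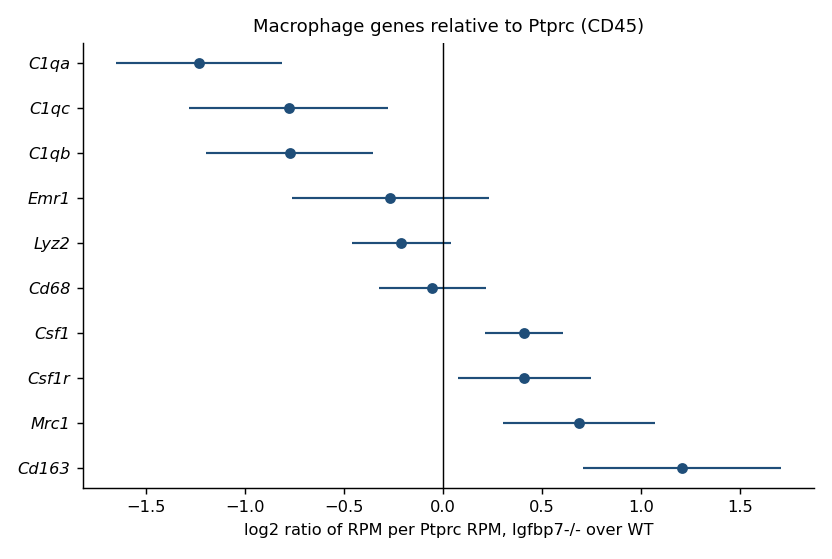
Log2 ratio, Igfbp7-/- over WT, of the RPM of each macrophage gene divided by the RPM of Ptprc, with the 95% counting interval of both genes. The C1q genes lie below 0 (-1.23 to -0.77), Emr1, Lyz2 and Cd68 have intervals that cross 0, and Mrc1 (0.69) and Cd163 (1.21) lie above it.

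A longer list of 41 other macrophage and monocyte genes included 37 that reached the minimum, of which 26 were lower, 1 was higher and 10 stayed within 1.5-fold. Their median log2 ratio was -1.10. The shares of all genes were 23.0% lower and 21.4% higher. With 1 RPM required in both libraries 21 were lower, since Fcgr1, Fcgr4, Aif1, Timd4 and Ly86 passed the minimum through WT alone. Cybb, the membrane subunit of the phagocyte NADPH oxidase, had 117.7 RPM in WT against 32.0 RPM in Igfbp7-/-, and Mpeg1, the pore-forming perforin-2, had 100.8 and 37.0 RPM. Laptm5, a lysosomal membrane protein of blood cells, had 72.7 RPM in WT against 20.7 RPM in Igfbp7-/-. Low ratios among the well expressed genes were those of Cd86, a costimulatory ligand for T cells, with 51.5 and 4.14 RPM, and of the lysosomal protease Ctss, with 37.1 and 6.83 RPM. At the other end, Gpnmb, a glycoprotein of lipid-laden macrophages, had 12.3 RPM in WT against 25.5 RPM in Igfbp7-/- and was the gene counted as higher. Cd14, the lipopolysaccharide coreceptor, which mammary epithelium also expresses, had 469.9 and 677.4 RPM, a log2 ratio of 0.53 within the threshold, and Sirpa, the CD47 receptor, had 0.54. Cd14 weighed heavily in the sum over the list, which was 1114 RPM in WT against 957 RPM in Igfbp7-/-. Marco and Vsig4, receptors of some resident macrophages, had no reads in WT, and Trem2 and Vsig4 had none in Igfbp7-/-.

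Of 10 transcription factors of the macrophage lineage, 9 reached the minimum, 2 were lower and 3 were higher, with a median log2 ratio of 0.14. These counts are near the shares of all genes, 23.0% lower and 21.4% higher, and at 2-fold none was higher. The lower ones were Sfpi1 (now Spi1), which encodes PU.1, with 150 reads in WT (4.37 RPM) and 50 reads in Igfbp7-/- (1.43 RPM), and Irf8, a factor of monocytes and dendritic cells, with 29.1 and 6.54 RPM. The log2 ratio of Sfpi1 was -1.55 with an interval from -2.33 to -0.94, and that of Irf8 was -2.14. Cebpb, Maf and Nr1h3, which are also expressed outside the myeloid lineage, were higher, and the first of these had 58.0 RPM in WT against 113.5 RPM in Igfbp7-/-.

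Markers of several other cell types, though not of all, were lower along with the macrophage genes. The part of these cell types in the result was not tested. Of 8 pan-leukocyte markers 6 were lower and none higher, where 23.0% of all genes were lower and 21.4% higher. The summed level of the 8 markers was 220.1 RPM in WT against 140.6 RPM in Igfbp7-/-, of which Lcp1 gave 97.5 and 101.4 RPM. Of 12 dendritic and Langerhans cell markers, 11 reached the minimum and were lower, with a median log2 ratio of -2.94. With 1 RPM required in both libraries 7 were lower, since the others passed through WT alone. The list had a summed level of 858.7 RPM in WT against 95.5 RPM in Igfbp7-/-. Cd74, the invariant chain of MHC class II, had 526.6 and 69.7 RPM, H2-Eb1, a class II beta chain, had 59.2 and 1.06 RPM, and Cd207, the langerin of Langerhans cells, had 30.3 and 0.743 RPM. Zbtb46, a factor of classical dendritic cells, had the mildest ratio of the named genes, at 11.5 and 5.83 RPM. The list median of the 10 macrophage genes, -1.39, thus lay between that of the other macrophage genes and those of the pan-leukocyte markers, at -1.53, and the dendritic cell markers.

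Lymphocyte markers were sparse. The counts that follow stand beside 23.0% of all genes lower and 21.4% higher. Summed levels, here and for the cell types after these, cover every gene listed, kept or not. Of 6 T cell markers kept from 9 listed, 3 were lower and 1 was higher, with summed levels of 32.0 and 21.8 RPM. The 5 B cell markers kept from 6 were lower, with 13.4 and 1.63 RPM. The B cell markers passed the minimum through WT alone, so their count had to fall on the lower side. Neutrophil markers, 4 kept of 8, were summed to 408.6 RPM in WT against 1744 RPM in Igfbp7-/-, of which Ltf, lactoferrin, which lactating epithelium also makes, gave 369.0 and 1711 RPM. Although 2 of these 4 were lower and 1 was higher, with a median log2 ratio of -0.23, the sum was higher in Igfbp7-/-, and the neutrophil marker Ly6g had no read in WT and 1 in Igfbp7-/-. Mast cell markers, 4 kept of 6, had 1 lower and 2 higher, with summed levels of 35.1 and 34.01 RPM, and Ms4a2 had no reads in either library.

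Outside the blood lineages, 7 of 8 endothelial markers were lower, with summed levels of 1307 RPM in WT against 416.3 RPM in Igfbp7-/-, and 5 of 7 fibroblast markers, with 9084 and 4593 RPM. Here too, 23.0% of all genes were lower and 21.4% higher. Adipocyte markers, 4 kept of 5, had 3 lower and 1 higher, with 562.0 and 192.3 RPM, and none of the 3 erythroid markers kept of 5 passed 1.5-fold, with 888.5 and 997.5 RPM. The labelled epithelium was present in both libraries. Of 8 basal epithelial markers 7 were lower, with summed levels of 3642 and 1184 RPM, and of 8 luminal markers 5 were higher and none lower, with 1515 and 3457 RPM. Lower macrophage genes were thus measured in a library in which leukocyte, endothelial, stromal and basal markers were also lower and luminal markers higher, as the plot of the lists shows.

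**Figure D4:**
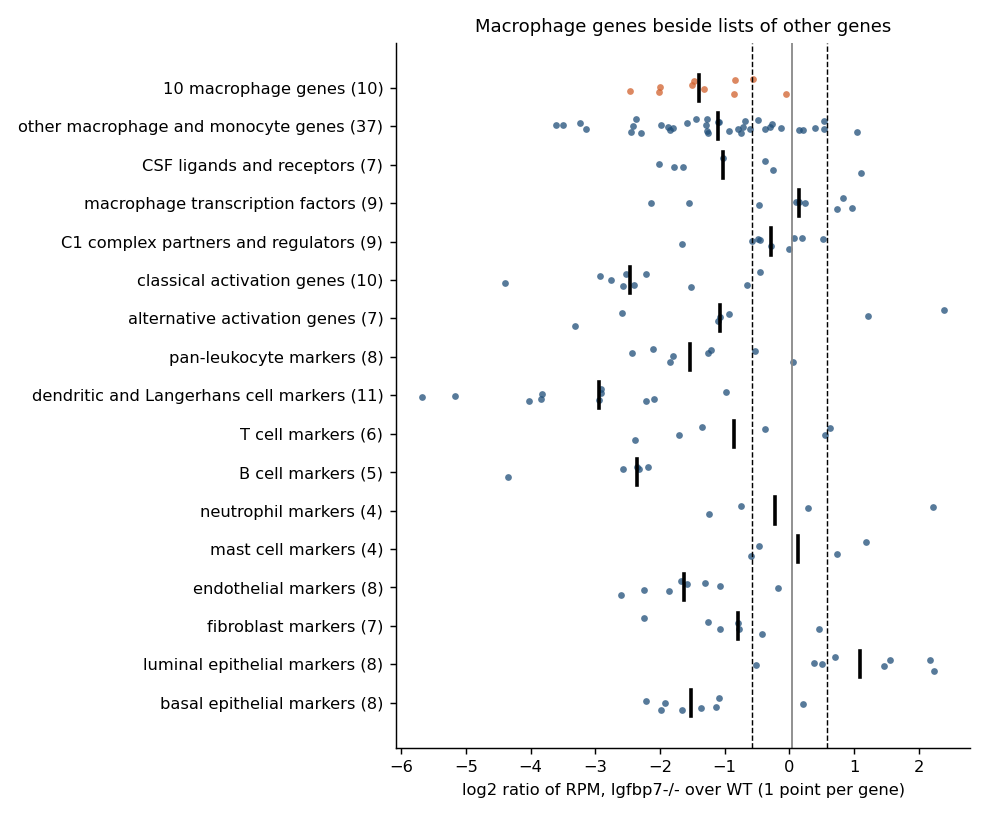
Log2 ratio of RPM, Igfbp7-/- over WT, for the macrophage genes (orange) and for lists of other genes (blue), 1 point per gene kept, with the number kept in brackets, black bars at list medians, a grey line at the median of all genes and dashed lines at 1.5-fold. The macrophage genes have a median of -1.39, dendritic cell markers lie lowest at -2.94 and luminal markers highest at 1.09.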

How the data were processed

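Poly(A) RNA of lineage-depleted MECs was sequenced on a SOLiD instrument in 2 libraries, WT and Igfbp7-/-. For each gene the authors deposited the count of reads, not normalized, an RPM, which is the count divided by the total reads of the library, and an RPKM, which divides the RPM by a gene length. Reads outside listed genes are part of the RPM denominator, and 733 entries were counted as without RPKM, including the 50 without a symbol. The submitters' processing notes name Bowtie 0.12.3, SAMtools 0.1.15 and mm9, whereas the methods name GeneSifter and a human build. In each file, 50 entries without a symbol, with 13989 and 16958 reads, were left out.

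Ratios, counts past 1.5-fold and intervals were computed in Python 3.11.15 (scipy 1.17.1) from the RPM with a pseudocount of 0.1 RPM for genes with at least 1 RPM in a library. On this log2(value + pseudocount) scale the change of low genes is understated. Intervals used counts divided by 2, since 75.8% and 74.1% of low counts were even, and 3 reads correspond to 0.0874 and 0.0857 RPM. A count test needs replicates and was not made. The ratio step was tested on simulated data. The macrophage genes and the 18 other lists were chosen with earlier results of these data known. All genes of lists with 10 genes or fewer could be named, and from longer lists the 5 genes of highest RPM and the 3 lowest and 3 highest ratios among genes with at least 10 RPM, although not every gene that meets this rule is reported here. Spi1 and Tfec were matched as Sfpi1 and Tcfec. The alternatives were other pseudocounts, minimums, thresholds and scalings, and RPKM.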

Additional observations from a re-analysis of the deposited data

How the results depend on the processing

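The 8 lower macrophage genes were lower, and none was higher, with pseudocounts of 1 and 0.01 RPM, with RPKM, with no minimum, with at least 1 RPM in both libraries, and with counts scaled to the listed genes, to these without ribosomal and small nuclear RNA, or without the 20 genes of highest RPM. RPKM kept 9 genes, without Cd163. A minimum of 10 RPM kept 8, without Emr1 and Cd163, of which 7 were lower. Centring on the median gave 9, with Mrc1, and a 2-fold threshold gave 6. The median log2 ratio ran from -1.43 to -1.19 over these settings. Dividing by Ptprc, chosen after seeing the data like the scaling without ribosomal RNA, gave 3 lower and 2 higher genes and a median of -0.13, with Csf1r and Csf1 turned to 0.41 each, because Ptprc itself was lower. Counts over all genes lower and higher were 5279 and 4741 with no minimum, 1672 and 1696 with 10 RPM, and 1936 and 1352 at 2-fold, and without ribosomal RNA 4582 were higher, with lower calls 37.0% of all calls. Among the other lists, scaling to the listed genes counted 3 other macrophage genes as higher, 4 without ribosomal RNA, and a minimum of 10 RPM left 9 lower. That minimum also left 3 pan-leukocyte, 2 alternative activation, 1 transcription factor and no B or T cell gene lower, and no higher colony-stimulating factor gene. A minimum of 1 RPM in both libraries left 7 dendritic, 3 alternative activation and no B cell genes lower and removed Csf2, the higher colony-stimulating factor gene. A pseudocount of 1 RPM left 3 alternative activation genes lower and no T cell gene higher. The count of lower other macrophage genes ran from 9 with a minimum of 10 RPM to 28 with no minimum, and was 20 at 2-fold. RPKM, or a minimum of 10 RPM, left 8 dendritic markers lower, and at 2-fold no transcription factor was higher. Further counts of the lists moved by 1 or 2 genes. Leaving out a replicate was not possible with 1 library per genotype. No paired analysis was possible because each genotype had 1 library. Depth limited Cd163, Emr1 and C1qc most, with 92 to 372 reads each.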

Other observations

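Of 10 classical activation genes of macrophages, 9 were lower and none higher, against 23.0% of all genes lower, and their median log2 ratio was -2.46. With 1 RPM required in both libraries 7 were lower, since Il12b and Cd80 passed the minimum through WT alone. Cxcl9, an interferon-gamma induced chemokine, had 215.9 RPM in WT against 10.2 RPM in Igfbp7-/-. Cxcl10, a related chemokine, had 403.8 and 59.9 RPM, and the T cell attractant Ccl5 had 103.1 and 13.5 RPM. The cytokine genes Il6 and Il1b had 260.0 and 53.2 RPM in WT and 55.9 and 9.97 RPM in Igfbp7-/-. Nos2, the inducible nitric oxide synthase, had 18.1 and 6.20 RPM, and Ptgs2, a prostaglandin synthase, stayed within 1.5-fold at 73.7 and 53.9 RPM. Epithelial and stromal cells also express several of these genes.

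Alternative activation genes were fewer and lower in level. Of 10 listed, 7 reached the minimum, of which 5 were lower and 2 higher, with a median log2 ratio of -1.08. The shares of all genes were 23.0% lower and 21.4% higher. With 1 RPM required in both libraries 3 were lower and 1 was higher. Ccl17 and Cd209a had passed the minimum through WT alone, and Chi3l3 through Igfbp7-/- alone. Il10, an anti-inflammatory cytokine, had 35.7 RPM in WT against 3.51 RPM in Igfbp7-/-, and the chemokine Ccl22 had 19.1 and 3.08 RPM. The higher genes were Arg1, arginase 1, with 47 reads in WT and 116 in Igfbp7-/- (1.37 and 3.31 RPM), and Chi3l3, a chitinase-like protein, with 14 and 90 reads (0.408 and 2.57 RPM).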
